A study of Drosophila melanogaster with 12 samples.

Results

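Forced expression of the homeodomain factor Slou across the embryonic mesoderm of Drosophila melanogaster was compared with wild-type mesoderm on 6 of the 12 arrays of the series. The 3 arrays labelled Slou gain of function and the 3 arrays of wild type set 1 share a scaling in the deposited table. Every group carried the twi-gal4 driver, which is active in Twist-expressing cells, and a UAS-GFP reporter. The Slou embryos carried a UAS-S59 insertion in addition, S59 being another name of Slou, and wild type set 1 carried no further insertion. Embryos were taken between late stage 11 and early stage 12, GFP-positive cells were sorted by flow cytometry, and biotin-labelled cRNA was made from about 2 to 5 µg of total RNA. The driver and reporter are thus present in the wild-type cells too, and the Slou protein was supplied to all cells in which twi-gal4 is active and not to its normal subset. Described here are the bright named genes, those with a mean log2 value of at least 5 in either group and a probe set annotated with exactly 1 gene. There were 4849 such genes among 11982 named genes, each read from its brightest probe set.

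Slou belongs to the NK homeobox family and is one of the muscle identity factors. These are transcription factors that are switched on in particular founder cells, the cells that seed each embryonic muscle and give it its size, position and attachments. Founder cells fuse with fusion-competent myoblasts, and the same Twist-derived mesoderm also gives rise to visceral muscle, heart, fat body and blood cells. The series addresses how homeodomain proteins that bind similar DNA regulate different genes.

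Bright genes changed in both directions at similar numbers. With limma, and Benjamini-Hochberg adjustment over all 18769 probe sets at 0.05, 143 bright genes were called higher in Slou (2.95%) and 121 lower (2.5%). Over all probe sets 434 were called (2.31%). The choice of bright genes by either group favours genes that differ. Among the 4659 genes with a mean of at least 5 over the 6 arrays 229 were called (4.92%), and among the 4463 genes bright in both groups 103 were higher (2.31%) and 76 lower (1.7%). The median change of the called genes was 1.15 upwards and -1.19 downwards on the log2 scale, and 19 rises and 24 falls reached 2. Over all bright genes the median change was -0.017, and all but the lowest and highest 5 percent of genes lay between -0.57 and 0.61. The groups of arrays did not overlap for any of the 264 called genes. Over all bright genes they did not overlap for 1213 that lay higher in Slou (25.0%) and 1313 that lay lower (27.1%). Where a called gene is said below to have its groups apart, this only describes its values and adds nothing to its call.

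The number of these calls depended on how the spread was estimated, and the plain calls were fragile to the loss of an array. The median SD between wild-type arrays was 1.15 for probe sets under a log2 value of 2 and 0.048 for those at 8 or above, and the plain limma fit draws on both. A limma fit in which the spread may follow intensity called 876 bright genes higher (18.1%) and 888 lower (18.3%). With 1 array left out, the plain fit retained between 0 and 29 of the 264 calls, with 0 when wild type replicate C was left out. The fit with an intensity trend retained 264 of 264 with each of the 6 arrays left out. That fit called 1503 to 1630 bright genes in those runs, and the 264 had been chosen with all 6 arrays. Its retention of them is therefore no separate support. Against wild type set 2, which has the same genotype but another scaling and was set to a common distribution first, 246 of the 264 kept their direction and 210 were called. Of the 18 genes that turned, those described below are marked as such. The comparison with wild type set 2 uses the same Slou arrays with which the 264 were chosen. Directions and calls kept there are therefore partly built in and are no separate support. Over all probe sets it called 2007, against 434 with wild type set 1. The labels do not say whether replicates A, B and C were separate embryo collections, so p-values here reflect only array-to-array spread, part or all of which may be technical. Unless another fit is named, "rose" and "fell" refer to the plain limma fit, values are log2 values in the order of replicates A, B and C, and changes are log2 differences of Slou minus wild type set 1. Every count of list members below is to be read beside the shares over all bright genes. These are 2.95% higher and 2.5% lower in the plain fit, and 18.1% and 18.3% with the intensity trend.

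**Figure D1:**
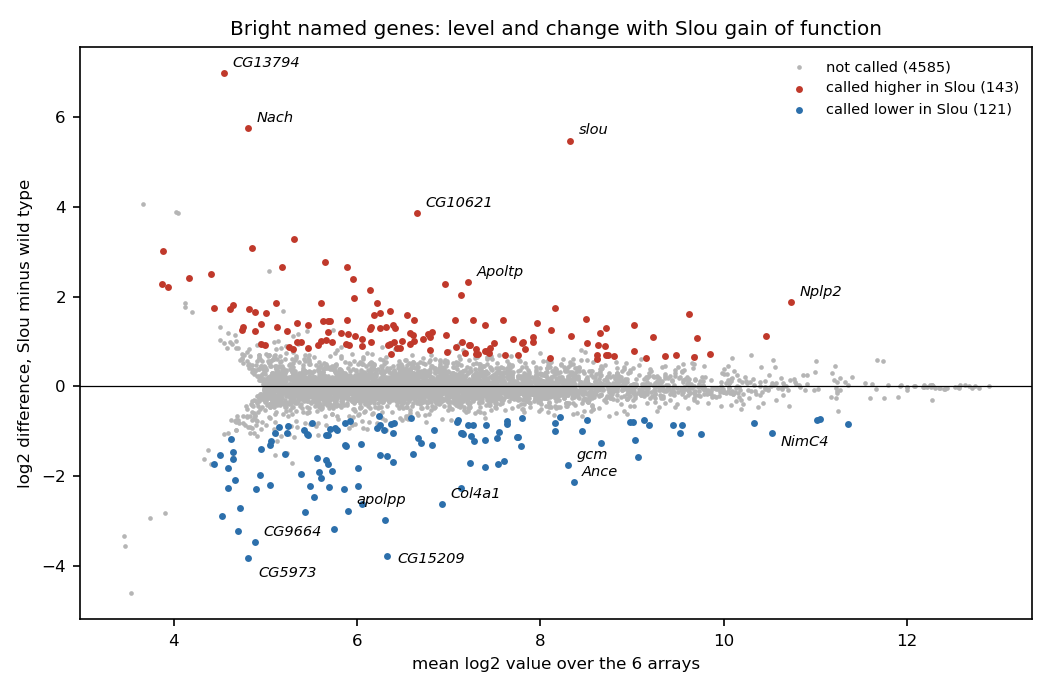
Change with Slou gain of function (vertical axis, log2 difference) against the mean log2 value over the 6 arrays (horizontal axis) for the 4849 bright named genes, with called genes in colour. The 143 rises and 121 falls spread over the whole range of levels, and the 2 highest points, CG13794 and Nach, start from wild-type values near background. The wedge at the left edge comes from requiring a mean of 5 in either group.

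The overexpressed gene separated the groups. The slou probe set read 5.45, 5.69 and 5.61 in wild type and 11.01, 11.08 and 11.12 in Slou. All Slou arrays were above all wild-type arrays, with a change of 5.48 (SE 0.11, adjusted p = 0.00152), or 44.7-fold. Whether the probe set reads the transgene, the endogenous gene or both cannot be told from these values.

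The largest rises included a transporter, an ion channel subunit and enzymes of amino acid metabolism. In bulk RNA of this kind, fewer cells of a type and less RNA per cell cannot be told apart. CG13794, a predicted sodium-coupled solute transporter, read 1.62, 0.27 and 1.25 in wild type and 8.05, 8.02 and 8.04 in Slou. Nach, a sodium channel subunit of the DEG/ENaC family known from tracheal liquid clearance, read 1.28, 3.16 and 1.33 in wild type and 7.55, 7.69 and 7.82 in Slou. For both genes every Slou array was far above every wild-type array. Their wild-type means lay under a log2 value of 2, close to background, so that the fitted changes of 6.99 (SE 0.37, adjusted p = 0.00667) and 5.76 (SE 0.57, adjusted p = 0.0193) have uncertain sizes.

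Next came CG10621, which encodes a homocysteine S-methyltransferase, an enzyme that remakes methionine. It read 4.41, 4.67 and 5.09 in wild type and 8.59, 8.64 and 8.52 in Slou, a change of 3.86 (SE 0.20, adjusted p = 0.00649). Bhmt, a homocysteine methyltransferase gene that adjoins CG10621 in the Release 6 gene order, read 4.01, 3.59 and 3.95 in wild type against 6.36, 6.66 and 6.53, a change of 2.67 (adjusted p = 0.00814). LKRSDH, the bifunctional enzyme that opens lysine breakdown, read 4.51, 4.64 and 4.55 against 7.23, 7.15 and 7.29, a change of 2.66 (adjusted p = 0.0048). For all 3 enzymes the groups were separated by more than 1 log2 unit. Genes of membrane proteins followed. wdp (windpipe), a cell-surface leucine-rich repeat proteoglycan, rose by 2.51 from 3.04, 3.18 and 3.23 to 5.86, 5.41 and 5.71. laza, a lipid phosphate phosphatase, rose by 2.42 from 2.75, 3.40 and 2.73 to 5.48, 5.34 and 5.32. The remaining 4 of the 12 largest rises were be (3.28), CG2003 (3.09), CG33757 (3.02) and CG1572 (2.77), whose adjusted p-values ran from 0.00636 to 0.0118. The second, dimmer probe set of be changed by 0.11 only.

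The largest falls included lipid carriers, transporters and both collagen IV genes. CG5973, which encodes a Sec14-domain lipid carrier, read 6.68, 6.83 and 6.66 in wild type and 2.80, 2.93 and 2.93 in Slou, a change of -3.83 (SE 0.11, adjusted p = 0.00364). CG15209 read 8.21, 8.2 and 8.26 against 4.62, 4.38 and 4.28, a change of -3.79 (SE 0.13, adjusted p = 0.00455). CG9664, an ABC transporter of the half-transporter type, read 6.61, 6.55 and 6.68 against 3.49, 3.26 and 2.69, a change of -3.47 (SE 0.23, adjusted p = 0.00926). In these genes each Slou array was at least 2 log2 units below each wild-type array. tey (teyrha-meyrha), a regulator of target recognition in a ventral muscle, fell by 3.22 from 6.06, 6.33 and 6.54 to 3.56, 3.11 and 2.6. CG14856, an organic cation transporter-like gene, fell by 3.18 from 7.25, 7.33 and 7.43 to 4.12, 4.29 and 4.06, and its second bright probe set changed by -3.23. Against wild type set 2 the change of CG14856 was -1.58. The neighbouring transporter gene CG14857, chosen after its values were seen and dim in both groups, read 3.02, 2.88 and 3.44 against -0.81, -1.41 and -0.95.

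apolpp, the precursor of the apolipophorins that carry lipid in the hemolymph, read 7.35, 7.23 and 7.29 in wild type and 4.75, 4.41 and 4.40 in Slou. It fell by 2.77 (SE 0.14, adjusted p = 0.00618), with no overlap. Sfxn1-3, a sideroflexin whose human relatives carry serine into mitochondria, fell by 2.72 from 5.97, 6.17 and 6.12 to 3.47, 3.09 and 3.54. The collagen IV genes vkg and Col4a1 and the homeobox gene Dr, which are taken up below, fell by 2.97, 2.62 and 2.80. The other 2 of the 12 largest falls were CG32032 (-2.88, adjusted p = 0.0243) and CG15695 (-2.62, adjusted p = 0.0112).

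**Figure D2:**
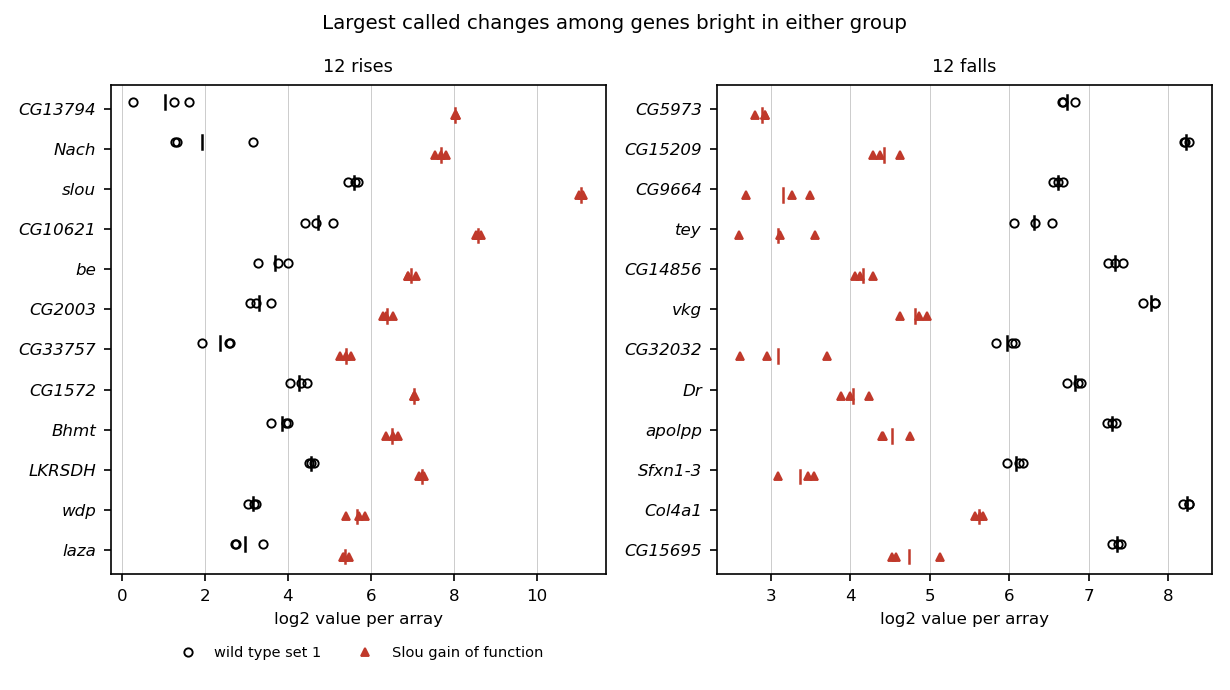
Log2 values on each array for the 12 largest called rises (left) and the 12 largest called falls (right) among genes bright in either group. Open circles are the 3 wild-type arrays, filled triangles the 3 Slou arrays and ticks the group means. The groups are apart for each of the genes, as they are for all 264 called genes, and Nach has 1 wild-type array at 3.16 above the other 2.

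Genes that were bright in both groups had smaller changes that do not rest on values near background. Apoltp, a lipid transfer particle apolipoprotein that loads lipid onto circulating lipoprotein, read 6.0, 6.01 and 6.15 in wild type and 8.33, 8.36 and 8.43 in Slou, a change of 2.32 (SE 0.10, adjusted p = 0.00511). GstT4, a theta-class glutathione S-transferase, read 6.16, 6.05 and 6.12 against 8.12, 8.17 and 8.16, a change of 2.04 (SE 0.09, adjusted p = 0.00517). Nplp2, a neuropeptide-like precursor, was already bright at 9.87, 9.73 and 9.79 and read 11.72, 11.65 and 11.66 in Slou, a change of 1.88 (SE 0.10, adjusted p = 0.00647). In each gene the lowest Slou array lay well over 1 log2 unit above the highest wild-type array. klar, a nuclear-envelope protein that links nuclei and lipid droplets to microtubule motors, rose by 2.16 from 5.26, 4.98 and 4.93 to 7.17, 7.12 and 7.36. ham (hamlet), a PR-domain zinc finger factor, rose by 1.60 from 5.45, 5.42 and 5.28 to 7.0, 6.97 and 6.99. The other rises of this group were MESR3 (2.28), CG3829, a CD36-family scavenger receptor gene (1.87), CG9743, of the fatty acid desaturase family (1.74), peg (1.68), CG33090, a predicted glucosylceramidase (1.63), and CG14629 (1.62). CG33090 changed by 0.72 against wild type set 2.

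Among the falls of genes bright in both groups, Ance, a secreted homologue of angiotensin-converting enzyme, read 9.38, 9.51 and 9.41 in wild type and 7.30, 7.23 and 7.37 in Slou, a change of -2.13 (SE 0.10, adjusted p = 0.00565). gcm (glial cells missing), the fate switch of glia and of blood cell precursors, read 9.17, 9.23 and 9.15 against 7.48, 7.51 and 7.31, a change of -1.75 (SE 0.11, adjusted p = 0.00814). Both were lower on every Slou array. nemy, of the cytochrome b561 family, fell by 1.79 from 8.36, 8.27 and 8.27 to 6.65, 6.28 and 6.58. Npc2g, of the sterol-binding NPC2 family, fell by 1.57 from 9.76, 9.85 and 9.92 to 8.25, 8.27 and 8.31. The remaining falls were CG13315 (-2.26), the dipeptidase Dip-C (-1.81), CG30344 (-1.73), CG5002, a predicted anion transporter (-1.70), the Pax gene gsb (-1.68), the acyl-CoA synthetase hll (-1.67) and CG40006, another CD36-family gene (-1.55), beside Col4a1. For Dip-C the Slou arrays read 4.59, 5.37 and 5.36, so replicate A was clearly below the others. Against wild type set 2 CG5002 changed by -0.42 and was not called, and the falls of gcm, Npc2g, CG13315, CG30344, gsb, hll and CG40006 were smaller, at -0.92, -0.87, -1.39, -1.10, -0.91, -0.76 and -0.92.

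**Figure D3:**
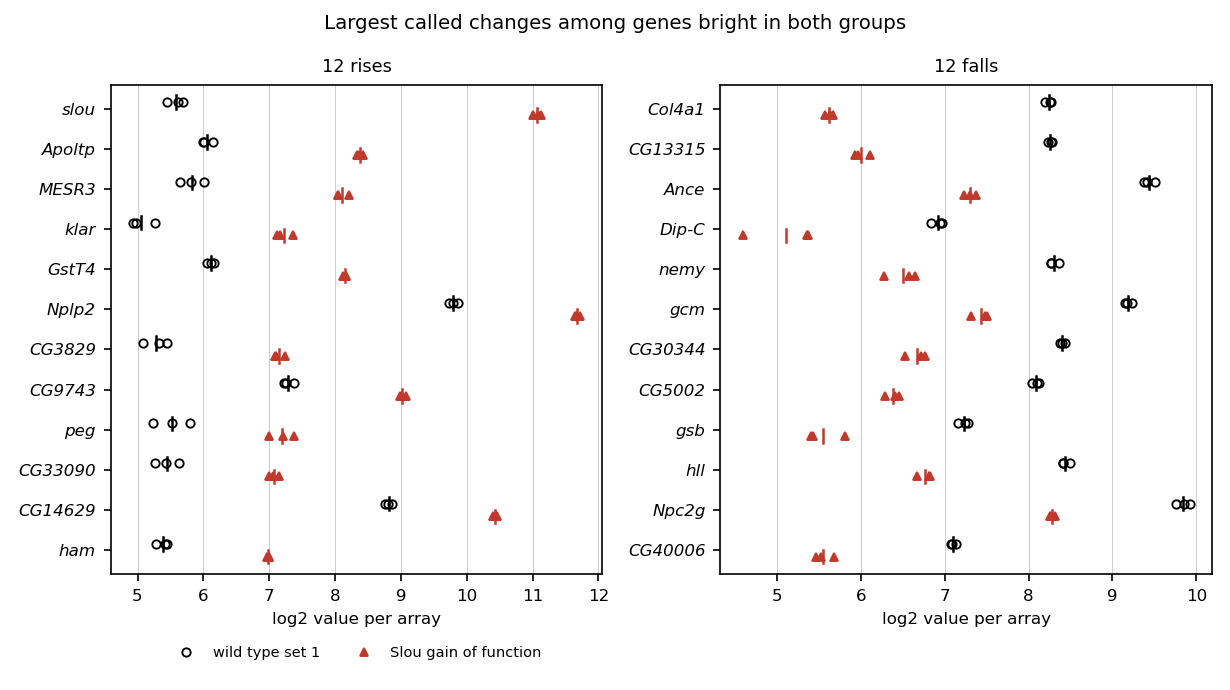
Log2 values on each array for the 12 largest called rises (left) and falls (right) among genes with a mean of at least 5 in both groups. Open circles are wild-type arrays, filled triangles Slou arrays and ticks means; the axis starts near 5 on the log2 scale, and Dip-C has the widest spread between Slou arrays.

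Enzymes of amino acid breakdown and one-carbon transfer changed in both directions. The list of amino acid and one-carbon metabolism had 14 bright members, of which CG10621 rose and pug fell. With the intensity trend 8 were higher and 3 lower, and the median change over its 14 members with a mean of at least 5 was 0.18, but -0.23 against wild type set 2. pug, the folate enzyme C1-tetrahydrofolate synthase, read 6.16, 6.32 and 6.19 in wild type and 5.20, 4.94 and 5.29 in Slou, a change of -1.08 (adjusted p = 0.0338). Shmt, which passes a one-carbon unit from serine to folate, missed the threshold with a change of -1.09 (SE 0.18, adjusted p = 0.0634), and so did the glutamate dehydrogenase gene Gdh with -0.54 (adjusted p = 0.0667).

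Further enzymes of the same routes were chosen after their values were seen. Sardh, the sarcosine dehydrogenase that feeds one-carbon units to folate, read 7.13, 7.15 and 7.09 in wild type and 5.10, 4.66 and 4.91 in Slou, a change of -2.23 (SE 0.15, adjusted p = 0.00873), and -1.20 against wild type set 2. Aldh7A1, which acts downstream of LKRSDH in lysine breakdown, read 7.16, 6.97 and 7.08 against 7.79, 7.84 and 7.78, a change of 0.74 (adjusted p = 0.042). The lysine enzymes were thus higher on every Slou array, and the folate-linked Sardh and pug lower. Cth, the cystathionine gamma-lyase, changed by 0.58 and did not pass (adjusted p = 0.0692).

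Enzymes of sugar use and of glucose synthesis were among the called genes. Galk, galactokinase, read 5.03, 4.86 and 5.31 in wild type and 6.47, 6.24 and 6.16 in Slou, a change of 1.22 (adjusted p = 0.0411), and Galt, the uridylyltransferase of the next step of galactose use, rose by 0.84 (adjusted p = 0.0364). Of the phosphoenolpyruvate carboxykinase genes, Pepck1 read 9.61, 9.66 and 9.62 against 8.4, 8.5 and 8.42, a change of -1.19 (adjusted p = 0.0124). Pepck2 went the other way, from 6.43, 6.43 and 6.32 to 7.57, 7.57 and 7.49, a change of 1.15 (adjusted p = 0.0146), or 0.61 against wild type set 2. These 4 genes, too, were chosen after their values were seen. Among the 10 bright members of the glycolysis list only Gpdh1, the glycerol-3-phosphate dehydrogenase that branches from glycolysis to lipid synthesis, rose (1.26, adjusted p = 0.0131), while 6 were higher and 0 lower with the intensity trend. The median over the 9 list members with a mean of at least 5 was 0.55 against wild type set 1 and -0.17 against wild type set 2.

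In the list of the tricarboxylic acid cycle, 2 of 13 bright members rose and 1 fell, with 3 higher and 4 lower by the intensity trend. Idh, the NADP-dependent isocitrate dehydrogenase, which works beside the cycle and not in it, read 6.71, 6.5 and 6.61 in wild type and 4.37, 4.49 and 4.26 in Slou, a change of -2.23 (SE 0.12, adjusted p = 0.00667). Ogdh, the 2-oxoglutarate dehydrogenase of the cycle, read 6.18, 6.24 and 6.30 against 7.32, 7.37 and 7.37, a change of 1.11 (adjusted p = 0.0146). The groups were apart in both. Idh3b, a subunit of the NAD-dependent isocitrate dehydrogenase, rose by 0.93 but changed by -0.27 against wild type set 2. The pyruvate carboxylase gene PCB changed by -0.32 (adjusted p = 0.291).

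**Figure D4:**
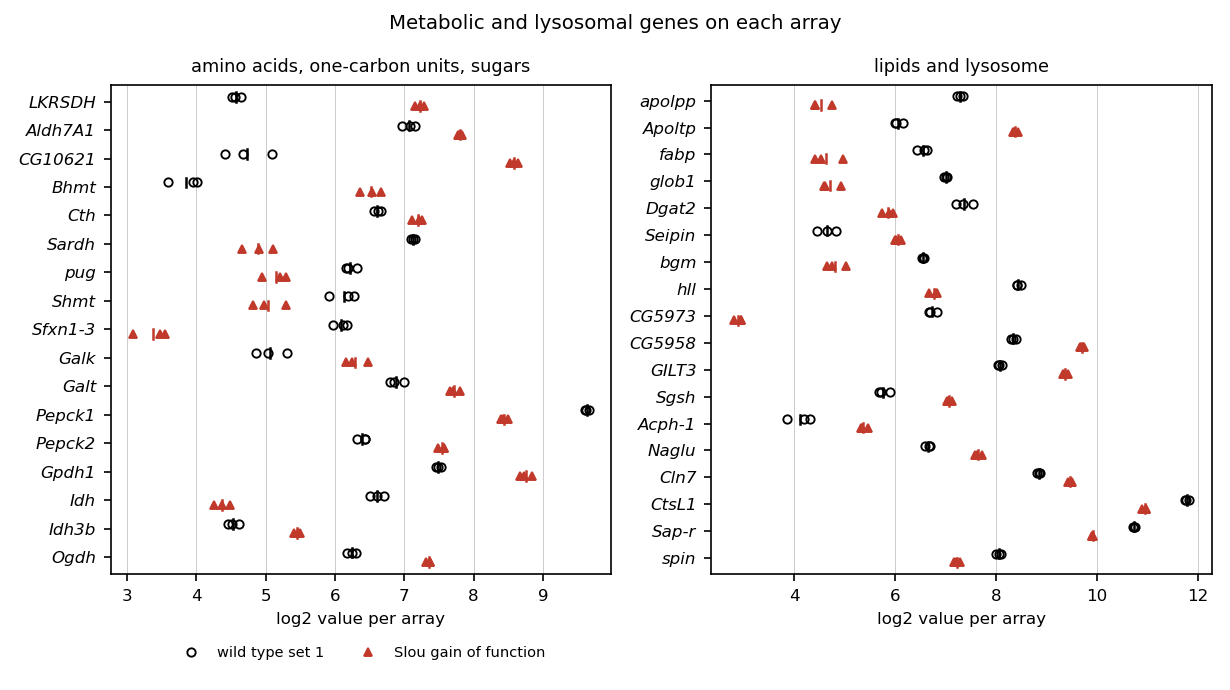
Log2 values on each array for genes of amino acid, one-carbon and sugar metabolism (left) and of lipids and lysosome (right), open circles for wild type set 1, filled triangles for Slou, ticks for means. Enzymes of one route lie on both sides, as for Pepck1 against Pepck2 and apolpp against Apoltp; Cth and Shmt did not pass the test.

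Lipid genes split between carriers. Of 16 bright members of the list of lipid uptake, transport and storage, Apoltp rose and apolpp, glob1 and fabp fell, where 7 were higher and 4 lower with the intensity trend. The list median was 0.07 against wild type set 1 and -0.33 against set 2. fabp, a fatty acid binding protein, read 6.57, 6.43 and 6.63 in wild type and 4.96, 4.41 and 4.52 in Slou, a change of -1.92 (adjusted p = 0.0174). glob1, placed in this list but an oxygen-binding globin, read 6.96, 7.0 and 7.03 against 4.93, 4.58 and 4.61, a change of -2.29 (adjusted p = 0.00814). The lipoprotein precursor apolpp and the lipid loader Apoltp, which act on the same particle, therefore moved in opposite directions. The list of fat body and adult muscle precursor genes holds both as well, and of its 8 bright members Apoltp rose and apolpp and the nuclear receptor gene svp (-0.98, adjusted p = 0.0377) fell, while the homeobox gene ct changed by -0.80 (adjusted p = 0.115).

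Among the 6 bright genes of Sec14-domain carriers, neighbours in the Release 6 order went apart. CG5973 fell as given above, and CG5958 read 8.30, 8.34 and 8.39 in wild type and 9.69, 9.74 and 9.66 in Slou, a change of 1.36 (adjusted p = 0.00945). The next members by p, CG32407 and CG33523, changed by -0.15 and 0.08 and did not pass, and CG32407 was at 0.06 against wild type set 2. Lipid genes chosen after their values were seen included bgm, a very-long-chain acyl-CoA synthetase (-1.73, adjusted p = 0.0117), Dgat2, which makes triglyceride (-1.51, adjusted p = 0.0159), Seipin, which shapes lipid droplets (1.41, adjusted p = 0.0189), and SCAP, which escorts SREBP (1.64, adjusted p = 0.0426). Dgat2 read 7.35, 7.21 and 7.54 in wild type and 5.96, 5.73 and 5.87 in Slou, but its change against wild type set 2 was only -0.19.

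Transporters changed in both directions. Of 19 bright ABC and solute transporters, Oatp30B, E23 and mnd rose and CG9664 fell, and with the intensity trend 9 were higher and 3 lower. Oatp30B, an organic anion transporter, read 5.42, 4.74 and 4.78 in wild type and 6.94, 6.85 and 7.05 in Slou, a change of 1.97 (adjusted p = 0.0263). mnd (minidiscs), an amino acid transporter that brings in leucine, rose by 0.95 (adjusted p = 0.0385). E23, an ecdysone-induced ABC transporter, rose by 0.98 (adjusted p = 0.0272), against 0.07 with wild type set 2. Orct, an organic cation transporter gene chosen after its values were seen, fell by 1.08 from 5.98, 6.0 and 6.05 to 4.99, 5.02 and 4.78. Among 6 bright ion channel genes Nach alone passed, and 1 was higher and 2 were lower with the intensity trend.

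Glutathione transferases and a thioredoxin were among the called genes of detoxification. Of 16 bright redox and detoxification genes 4 rose and 0 fell, against 8 higher and 3 lower with the intensity trend, and the median over 15 members with a mean of at least 5 was 0.30. Beside GstT4 these were GstE12, which read 7.39, 7.25 and 7.29 in wild type and 8.28, 8.38 and 8.18 in Slou, GstE6 (0.72, adjusted p = 0.0326) and the thioredoxin gene Trx2 (0.62, adjusted p = 0.0469). GstE12 changed by 0.97 (adjusted p = 0.0256), and its Slou arrays were all above the wild-type arrays. Trx2 changed by 0.40 against wild type set 2 and was not called there. Of 5 bright UDP-glycosyltransferases, which attach sugars to small lipophilic molecules, Ugt317A1 rose by 1.37 (adjusted p = 0.0149) and Ugt302C1 fell by 1.40 (adjusted p = 0.0394). Ugt36D1 and Ugt37D1 changed by 0.85 and 0.35 without passing. The cytochrome P450 list had 4 bright members, and the 1 that passed, Cyp310a1, rose by 1.13 (adjusted p = 0.0428), against 0.50 with set 2, where it was not called.

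Some lysosomal genes, all chosen after their values were seen, were called in both directions. No list of lysosomal genes was made, so the share of them that was called is not known. Over all bright genes 2.95% were called higher and 2.5% lower. GILT3, a lysosomal thiol reductase, read 8.04, 8.05 and 8.11 in wild type and 9.35, 9.43 and 9.32 in Slou, a change of 1.30 (adjusted p = 0.0107). Sgsh and Naglu, lysosomal enzymes of heparan sulfate breakdown, rose by 1.31 (adjusted p = 0.0146) and 1.00 (adjusted p = 0.0189). Acph-1, acid phosphatase, rose by 1.26 (adjusted p = 0.0317), and Cln7, a lysosomal membrane protein, by 0.63 (adjusted p = 0.0469). On the other side CtsL1, the protease cathepsin L, read 11.74, 11.83 and 11.77 against 10.90, 10.97 and 10.97, a change of -0.83 (adjusted p = 0.0255). The saposin precursor Sap-r fell by 0.82 (adjusted p = 0.0238) and spin, a lysosomal efflux carrier, by 0.83 (adjusted p = 0.0272). The ceramidase gene CDase, also chosen after its values were seen but not counted as lysosomal, fell by 0.69 but changed by 0.56 against wild type set 2. CtsL1 and Sap-r were not called against set 2, at -0.17 and -0.36, and the change of Acph-1 there was 0.81.

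Basement membrane genes divided into a falling collagen group and a rising pair. Of 15 bright members of the matrix list, Pxn and SPARC rose and Col4a1, vkg, Glt, Tig and Ndg fell, against 6 higher and 7 lower with the intensity trend. Col4a1 read 8.26, 8.19 and 8.27 in wild type and 5.57, 5.67 and 5.63 in Slou, a change of -2.62 (SE 0.09, adjusted p = 0.00455). vkg, which encodes the other collagen IV chain from the neighbouring locus, read 7.69, 7.84 and 7.83 against 4.97, 4.63 and 4.86, a change of -2.97 (SE 0.13, adjusted p = 0.00511). Ndg, nidogen, fell by 1.02 (adjusted p = 0.0314), and Glt (glutactin, -1.82, adjusted p = 0.0252) and Tig (the integrin ligand tiggrin, -1.04, adjusted p = 0.0256), named after their values were seen, fell as well. SPARC, a collagen-binding matrix protein, read 7.74, 7.77 and 7.81 against 8.83, 8.92 and 8.92, a change of 1.12 (adjusted p = 0.0146). Pxn, the peroxidase that crosslinks collagen IV, read 9.13, 9.24 and 9.15 against 10.22, 10.24 and 10.29, a change of 1.08 (adjusted p = 0.0151). A second probe set of Pxn, near background, changed by -2.01. The 16 bright genes of collagen modification and secretion gave 0 calls by limma and 5 unadjusted p-values under 0.05, against 4 higher and 7 lower with the intensity trend.

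Blood cell genes overlap with the matrix genes. In the hemocyte list 2 of 21 bright members rose (Pxn and the filamin gene cher) and 6 fell, with 6 higher and 9 lower by the intensity trend. The falls included Col4a1, vkg, Ance and gcm, then Glt and the engulfment receptor gene NimC4. NimC4, named after its values were seen, read 11.06, 11.03 and 11.05 in wild type and 10.08, 9.99 and 9.95 in Slou, a change of -1.04 (adjusted p = 0.0159), against -0.19 with wild type set 2. The hemocyte markers crq, a scavenger receptor, and PPO1, a crystal cell enzyme, changed by -0.05 (adjusted p = 0.855) and -0.20 (adjusted p = 0.572). The marker srp changed by -0.45 (adjusted p = 0.131) and was lower with the intensity trend. Against wild type set 2 crq, PPO1 and srp changed by 0.23, -1.32 and 0.18. Over the 7 hemocyte markers measured, the log2 of their summed level was 11.96 to 11.98 in wild type and 11.67 to 11.72 in Slou, and Hml and NimC1 were dim in both groups. The part of a change in the number of blood cells in these results was not tested.

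Some contractile and fusion genes rose against wild type set 1, and 5 of these 7 rises had the other sign against set 2. Of 12 bright members of the contractile list, TpnC73F (troponin C, 1.21), Mlc2 and Mlc1 (myosin light chains, 1.33 and 1.01) and bt (projectin, 0.98) rose and 0 fell, whereas against wild type set 2 their changes were -0.40, -0.93, -0.14 and -0.47. With the intensity trend 8 of the 12 were higher and 0 lower. The list median over 11 members with a mean of at least 5 was 0.45 against set 1 and -0.31 against set 2. Mlc2 read 4.31, 4.61 and 4.46 in wild type set 1 and 5.77, 5.81 and 5.78 in Slou. Of 16 bright fusion genes, rols, sns and blow rose and 0 fell, with 8 higher and 3 lower by the intensity trend. rols, an adaptor of founder cells, changed by 0.92 (adjusted p = 0.0231) and blow (blown fuse), an actin regulator at the fusion site, by 0.70 (adjusted p = 0.0387), and both were also positive against set 2, at 1.21 and 0.59. sns, the adhesion receptor of fusion-competent myoblasts, rose by 1.59 from 6.0, 5.83 and 5.44 to 7.29, 7.39 and 7.36, but changed by -0.67 against set 2. Vrp1, an actin regulator of fusion, changed by 0.68 (adjusted p = 0.0553) and by -0.25 against set 2. RyR, the calcium release channel, chosen after its values were seen, rose by 0.96 (adjusted p = 0.0244) and changed by 0.56 against set 2.

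In the cytoskeleton list 3 of 24 bright members rose and 1 fell, with 13 higher and 2 lower by the intensity trend. The shares over all bright genes were 2.95% and 2.5%, and 18.1% and 18.3% with the intensity trend. Vinc, vinculin, which anchors actin at adhesions, read 5.73, 5.75 and 5.66 in wild type and 7.02, 7.02 and 7.18 in Slou, a change of 1.36 (adjusted p = 0.0115), against 0.23 with wild type set 2. cher rose by 0.87 (adjusted p = 0.0297). Vinc, cher (0.46) and twf (-0.39) were not called against set 2. alphaTub85E, an alpha-tubulin used in muscle, rose by 0.94 (adjusted p = 0.0195) but changed by -0.32 against set 2, and the actin monomer-binding twinfilin gene twf fell by 0.71 (adjusted p = 0.046). Of 17 bright integrin and attachment genes only Tig passed, while 9 were higher and 4 lower with the intensity trend.

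Most homeobox genes that passed were lower in Slou. Of 21 bright homeobox genes slou and ap rose and 8 fell, and 3 were higher and 14 lower with the intensity trend. The shares over all bright genes were 2.95% higher and 2.5% lower, and 18.1% and 18.3% with the intensity trend. Dr, which encodes the muscle identity factor Msh, read 6.90, 6.87 and 6.73 in wild type and 3.88, 4.23 and 4.0 in Slou, a change of -2.80 (SE 0.14, adjusted p = 0.00569). caup, of the Iroquois complex, read 6.21, 6.06 and 5.86 against 3.86, 3.56 and 3.85, a change of -2.28 (SE 0.15, adjusted p = 0.00926). ems (empty spiracles) read 6.5, 6.30 and 6.30 against 4.25, 4.36 and 4.6, a change of -1.96 (adjusted p = 0.0106). Every Slou array was lower for these 3 genes. The other falls were mirr (-1.50), Ptx1 (-2.26), pdm2 (-1.05), gsb and gsb-n, and ap (apterous), a LIM-homeobox muscle identity gene, rose by 1.46 (adjusted p = 0.0172); mirr, Ptx1, pdm2 and ap were named after their values were seen. The median over the 16 homeobox genes with a mean of at least 5 was -0.89, beside -0.017 over all bright genes, and -0.56 when every probe set of a gene was counted.

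Early mesoderm factors had 15 bright members, of which slou and ap rose and Dr, bin, nau and tey fell. With the intensity trend 5 were higher and 7 lower. nau (nautilus), the fly relative of MyoD, read 5.48, 5.57 and 5.33 in wild type and 3.8, 4.02 and 3.66 in Slou, a change of -1.63 (adjusted p = 0.0151). bin (biniou), the forkhead factor of visceral mesoderm, read 6.39, 6.59 and 6.46 against 4.82, 4.93 and 4.76, a change of -1.64 (adjusted p = 0.00926). Both were lower on each Slou array, and changed by -1.07 (nau) and -0.78 (bin) against wild type set 2. In the visceral mesoderm list bin, HLH54F, Hand and Ndg fell, 4 of 10 bright members, with 0 rises, and 1 was higher and 7 lower with the intensity trend. HLH54F, a factor of the longitudinal visceral muscle founders, fell by 1.53 (adjusted p = 0.0115) and Hand, shared by heart and gut muscle, by 2.21 (adjusted p = 0.0229), from 6.16, 6.23 and 6.04 to 3.47, 4.11 and 4.22.

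In the cardiac list 4 of 12 bright members fell and 0 rose, with 3 higher and 6 lower by the intensity trend. They were Hand, the T-box gene Doc1 (-1.09, adjusted p = 0.0255), odd (odd skipped, -0.96, adjusted p = 0.031) and svp. Its neighbour Doc2, named after its values were seen, fell by 1.49 (adjusted p = 0.0151) but had a mean under 5 in both groups. Among 21 bright bHLH genes tap, HLH54F, nau, Hand and Oli fell and cwo rose, with 6 higher and 10 lower by the intensity trend. tap, a neurogenin relative, read 7.89, 7.90 and 7.87 in wild type and 6.63, 6.67 and 6.71 in Slou, a change of -1.22 (adjusted p = 0.0112). Oli changed by -0.86 and cwo (clockwork orange), a circadian repressor, by 0.73, both named after their values were seen; cwo changed by 0.36 against wild type set 2 and was not called there.

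Neural genes fell without exception where they passed. Of 20 bright neural genes 6 fell and 0 rose, and 15 were lower and 0 higher with the intensity trend. The shares over all bright genes were 2.5% lower and 2.95% higher, and 18.3% and 18.1% with the intensity trend. The median over the 20 members with a mean of at least 5 was -0.66. nerfin-1, a zinc finger factor of neural precursors, read 8.16, 8.13 and 8.02 in wild type and 6.86, 6.93 and 7.05 in Slou, a change of -1.15 (adjusted p = 0.0174). D (Dichaete), a Sox factor, read 7.42, 7.25 and 7.33 against 6.23, 5.97 and 5.99, a change of -1.27 (adjusted p = 0.0185). pros (prospero) changed by -0.98 (adjusted p = 0.0196), and gcm, svp and pdm2 completed the falls. The neuronal marker elav, named after its values were seen, read 9.11, 9.09 and 9.01 against 8.56, 8.24 and 8.46, which did not pass (change -0.65, adjusted p = 0.0909). The log2 of the summed level of the 4 neuronal markers measured was 9.02 to 9.13 in wild type and 8.29 to 8.58 in Slou, almost all of it from elav, with nSyb and para under a log2 value of 2 in both groups. The part of neural cells caught in the sort in these falls was not tested.

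Signalling lists are given here beside the shares over all bright genes. These were 2.95% higher and 2.5% lower in the plain fit, and 18.1% and 18.3% with the intensity trend. Whether the lists exceed these shares was not tested. In the Notch list 2 of 24 bright members rose and 4 fell, and 9 were higher and 9 lower with the intensity trend. The falls were all in the Bearded family, small proteins that inhibit the ubiquitin ligase Neuralized and hence Delta signalling. BobA read 9.94, 9.95 and 10.04 in wild type and 9.08, 9.16 and 9.08 in Slou, a change of -0.87 (adjusted p = 0.0244), Brd changed by -0.86, Ocho by -0.86 and Tom, named after its values were seen, by -0.73. These genes adjoin one another, and near-identical copies may share signal on the array. Against wild type set 2 the change of Brd was only -0.14. Kaz-m1, a secreted protease inhibitor gene within the E(spl) complex, read 7.36, 7.28 and 7.29 against 8.28, 8.30 and 8.32, a change of 0.99 (adjusted p = 0.0162), and the complex's bHLH repressor E(spl)mdelta-HLH, named after its values were seen, changed by 0.72 (adjusted p = 0.0332).

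Of 13 bright segment polarity genes gsb-n, gsb and odd fell and 0 rose, with 1 higher and 7 lower by the intensity trend. gsb, a Pax factor, read 7.24, 7.28 and 7.16 in wild type and 5.43, 5.81 and 5.41 in Slou (change -1.68, adjusted p = 0.0159), and its neighbour and paralogue gsb-n fell by 1.22 (adjusted p = 0.0159). The homeobox gene en changed by -0.95 without passing (adjusted p = 0.0667). In the JNK list kay, which encodes the Fos subunit of AP-1, rose by 0.92 (adjusted p = 0.0206) and puc, the phosphatase that limits JNK activity, by 1.18 (adjusted p = 0.0329). These were 2 of 12 bright members, with 6 higher and 1 lower by the intensity trend, while pnr (0.56) and Jra, the Jun gene (0.37), did not pass. kay read 5.50, 5.43 and 5.43 against 6.34, 6.35 and 6.42, and against wild type set 2 kay changed by 0.57 and puc by 0.21, neither of them called.

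Of 12 bright members of the Dpp list Doc1 fell and tok, a secreted tolloid-type protease, rose by 1.01 (adjusted p = 0.0302). With the intensity trend 3 were higher and 5 lower. The feedback inhibitor Dad changed by -0.60 (adjusted p = 0.0875) and the nuclear effector shn by -0.44 (adjusted p = 0.121). In the FGF and EGF list kek1, a transmembrane inhibitor of the EGF receptor, read 2.43, 2.98 and 3.06 in wild type and 5.18, 4.91 and 5.03 in Slou, a rise of 2.21 (adjusted p = 0.0174). edl, a modulator of Ets factors, fell by 0.77 (adjusted p = 0.0493). The EGF antagonist aos changed by 0.70 (adjusted p = 0.0581) and the FGF receptor htl by 0.53 (adjusted p = 0.181), and neither passed. Of 14 bright members of this list kek1 and edl were the 2 that passed, with 4 higher and 4 lower by the intensity trend. In the ecdysone list, of 8 bright members ImpL2, a secreted antagonist of insulin signalling, fell by 0.99 (adjusted p = 0.0243) and E23 rose. With the intensity trend 3 were higher and 2 lower. The receptor gene EcR changed by 0.67 (adjusted p = 0.0811) and the juvenile hormone enzyme gene jhamt by -0.66 (adjusted p = 0.0653).

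Several lists had a lone bright call, each named after its value was seen. They were the caspase gene Strica among 9 apoptosis genes (1.85, adjusted p = 0.00989), Tep4 among 7 immune genes (1.2, adjusted p = 0.0131), tyn among 10 tracheal, gland and gut genes (1.17, adjusted p = 0.0269, or 0.60 against wild type set 2) and beat-IIIc, an axon guidance receptor gene, among 3 of its family (-0.98, adjusted p = 0.0215). The small heat shock gene Hsp27 rose by 0.86 among 11 chaperone genes but changed by -0.71 against wild type set 2. Strica read 4.50, 4.72 and 4.82 in wild type and 6.46, 6.51 and 6.62 in Slou, above wild type on every array.

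Lists of general cell machinery gave 0 calls in the plain limma fit. The 30 bright cytosolic ribosomal protein genes gave 0 calls in either fit and 0 unadjusted p-values under 0.05, with changes between -0.07 and 0.04. The 54 respiratory chain genes had a median change of -0.05, the 71 mitochondrial ribosomal protein genes -0.08, the 27 proteasome genes -0.10 (0.09 against wild type set 2) and the 35 translation factor genes 0.02. With the intensity trend these lists had 2 higher and 6 lower, 4 and 7, 0 and 4, and 5 and 3 respectively, and 1, 1, 1 and 4 members had an unadjusted p under 0.05 in the plain fit. Of 30 bright cell cycle genes, 1 was higher and 17 were lower with the intensity trend, with 11 unadjusted p-values under 0.05 in the plain fit and a median change of -0.18 against wild type set 1 and 0.10 against wild type set 2. Of 26 splicing and RNA-binding genes 12 were lower and 0 higher with the intensity trend, with 9 such p-values in the plain fit and a median of -0.15. The shares over all bright genes with the intensity trend were 18.3% lower and 18.1% higher.

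**Figure D5:**
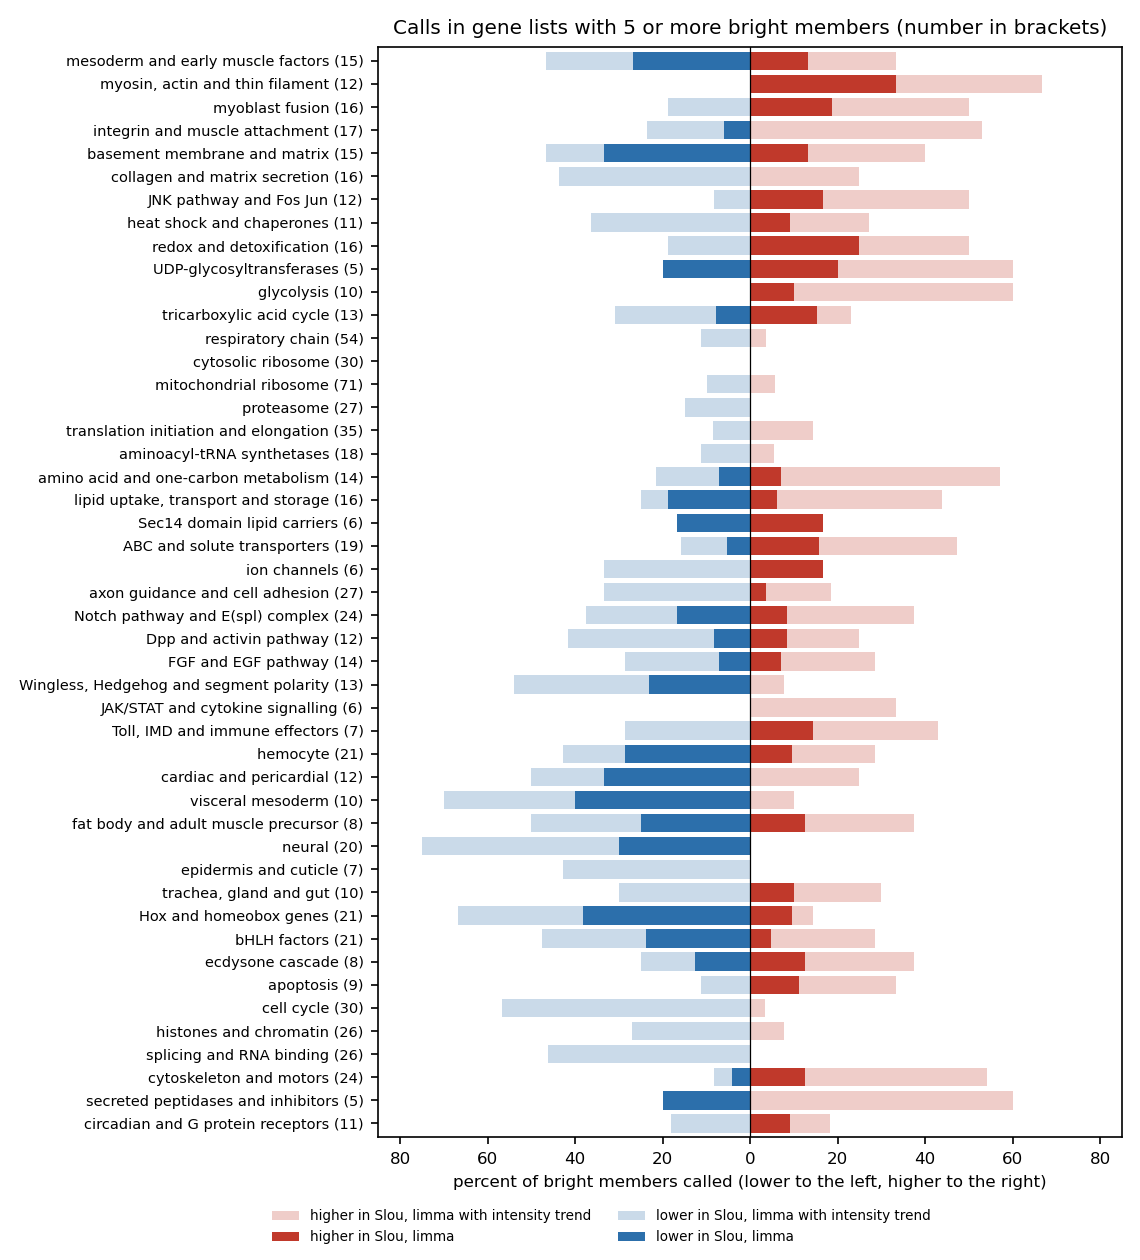
Percent of the bright members of each list called lower (left, blue) or higher (right, red) in Slou, for the 47 lists with at least 5 bright members. Dark bars are the plain limma fit and pale bars the fit with an intensity trend; over all bright genes the dark bars would reach 2.5 to the left and 2.95 to the right, and the pale ones 18.3 and 18.1.

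Called genes lay side by side in several places. In the order of protein-coding genes of the Release 6 annotation, 2416 adjacent pairs had both genes bright and 18 pairs had both called, of which 16 changed in the same direction. Of all bright genes 2.95% were called higher and 2.5% lower. Whether the number of pairs exceeds what these shares would give was not tested. Longer runs of falls were BobA, Tom, Brd and Ocho, and CG5002, Sardh and HLH54F. Pairs that fell included vkg with Col4a1, caup with mirr, CG32032 with CG13315, and gsb-n with gsb. Pairs that rose included CG10621 with Bhmt, MESR3 with Cyp310a1, and Strica with SCAP. CG5958 and CG5973 were 1 of the 2 pairs with opposite signs. By chromosome, 26 of 806 bright genes on the X were called, 20 higher and 6 lower (3.23%), while the major autosomal arms had 5.47% to 6.84% called; this difference was not tested.

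Mesodermal markers were bright, and those of other tissues varied. twi, the founding mesodermal factor, read 7.08, 7.19 and 7.03 in wild type and 7.55, 7.69 and 7.54 in Slou (change 0.49, adjusted p = 0.117). lmd, of fusion-competent myoblasts, read 10.23, 10.25 and 10.22 against 10.24, 10.42 and 10.35. The 8 mesodermal markers measured were bright in both groups, except bin, which fell to a mean of 4.84 in Slou. The log2 of their summed level, to which lmd as the brightest adds most, was 11.28 to 11.31 in wild type and 11.41 to 11.49 in Slou. In the plain fit sns rose and bin fell. With the intensity trend 4 were higher and 3 lower, the latter being bin, bap (-0.82) and kirre (-0.24). Against wild type set 2 twi, bap and kirre changed by 1.41, 0.34 and 0.34. Mef2, tin, how, Mhc and Act57B were not among the named probe sets. Epidermal markers (grh, crb, sdt and ovo) were bright too. The log2 of their summed level was 7.99 to 8.16 in wild type and 7.74 to 7.87 in Slou, and 0 of 4 passed. With the intensity trend 0 were higher and 2 lower. Against wild type set 2 all 4 were lower in Slou, with changes of -1.26, -1.39, -0.83 and -1.0. For the 2 tracheal markers the sums, given as log2 in the same way, were 4.28 to 4.47 and 4.33 to 5.16, and for the 2 salivary gland markers 5.99 to 6.11 and 6.35 to 6.71. Endodermal sums were 6.58 to 6.66 and 6.34 to 6.48, and germline sums 2.49 to 3.84 and 3.18 to 4.31. Those of the fat body, where Fbp1 and Lsp2 were near background and apolpp made up the signal, were 7.30 to 7.39 and 4.72 to 5.07. The glial sums, mostly gcm, were 9.19 to 9.29 and 7.39 to 7.61. The mean of the poly-A control probe sets was 6.66 ± 0.042 (SD, n = 3) in wild type and 6.0 ± 0.089 (SD, n = 3) in Slou, while the difference between the 3' and 5' probe sets of Act5C was 1.44 ± 0.020 and 1.47 ± 0.018; the part of the former in the results was not tested.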

How the data were processed

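Total RNA of sorted GFP-positive mesodermal cells was measured on 12 single-colour arrays in 4 groups of 3. The authors deposited log2 values per probe set, made with the R package affy per the submitters' processing notes; background correction, scaling and summary method are not given in the sources used here, and the base of the logarithm was inferred from their range. Of 18952 probe sets, 183 controls were left out. Of the rest, 13647 were annotated with 1 gene, 402 with several and 4720 with none; 13544 of the former matched the Release 6 naming table. Of the probe sets with several genes or none, 50 bright ones were called.

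Slou and wild type set 1 were compared with limma 3.58.1 in R 4.3.3 over 18769 probe sets, with moderated standard errors and Benjamini-Hochberg adjustment at 0.05. A log2 value of 5 or more is called bright, and under 2 near background; the deposited values carry no detection calls. Array medians were 2.59 to 2.72, and the number of arrays limits the precision. Correlations between arrays over bright probe sets were 0.9936 to 0.9951 within groups and 0.9577 to 0.9589 between them. The replicate letters gave no sign of pairing arrays. For letters A, B and C, deviations from the group means correlated at -0.010, 0.014 and 0.003 over all probe sets, many of them dim. Over probe sets with a mean of at least 5 the correlations were -0.031, -0.030 and -0.127. The labels do not say whether letters pair arrays, and these values cannot exclude it. The fits were tested on simulated data.

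Each gene is represented by the probe set with the highest mean over the 6 arrays. Genes named are slou, the 12 largest called rises and falls among genes bright in either group and in both groups, and up to 4 bright members with the smallest p of each of the 25 lists with at least 2 bright calls. Of 162 named genes 45 were chosen after their values were seen. Cell type markers that were not chosen in these ways are outside the 162. The 51 lists and the genes were chosen with earlier results of these data known, so lists are described by counts and medians with no set test. Alternatives were the intensity trend, the replicate block, quantile normalization, centring, a filter on dim probe sets, all 12 arrays, each array left out, another brightness rule, every probe set of a gene and wild type set 2 after quantile normalization of 12 arrays. No coordinates are given, since the array annotation names no build.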

Additional observations from a re-analysis of the deposited data

How the results depend on the processing

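Counts of calls depended on how the spread was estimated. For all probe sets (434), bright named probe sets (276) and bright genes (264) the counts were 2380, 1842 and 1764 with an intensity trend, 2133, 1845 and 1762 over probe sets with a mean of at least 5 only, and 1591, 1049 and 998 in a fit of 12 arrays. With 1 array left out they were 0 to 49, 0 to 31 and 0 to 30 in the plain fit, and 1985 to 2140, 1571 to 1704 and 1503 to 1630 with the intensity trend, an alternative added after seeing the data. With the replicate block limma called 0, 0 and 0, where 2105 probe sets had an unadjusted p under 0.05 (2825 without the block), and the change of slou, 5.48, had an adjusted p of 0.235. Whether the letters pair the arrays is not given by the labels and was not settled, so the block fit stands as an alternative. Without wild type replicate C 2436 probe sets had an unadjusted p under 0.05, and slou changed by 5.50 (adjusted p = 0.0504); over the left-out arrays its change was 5.42 to 5.54. The cause of these shifts in counts was not tested. Quantile normalization, centring and the other brightness rule kept the counts within 1.5 times, at 437 and 347 for all probe sets and 276, 218 and 239 for bright named ones.

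Of 162 named genes, 11 had the other sign against wild type set 2 after quantile normalization, none under the other alternatives: Mlc2 (-0.93), Hsp27 (-0.71), sns (-0.67), bt (-0.47), TpnC73F (-0.40), alphaTub85E (-0.32), Idh3b (-0.27), Vrp1 (-0.25), Mlc1 (-0.14), CG32407 (0.06) and CDase (0.56). The cause was not tested. A further 15 were no longer called there. Of the list medians compared within the 6 arrays, 3 moved by more than the standard error typical of their members: contractile genes without wild type replicate A (0.57), cardiac genes without Slou replicate C (-0.39) and homeobox genes with every probe set (-0.56). Against wild type set 2, a comparison of lists added after seeing the data, 34 of 50 list medians moved by more than that and 24 changed sign, and 32 of 142 called named genes kept their sign with a change over 1.5 times smaller. The cause was not tested.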

Other observations

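Called signal also lay outside the named genes. Of the bright probe sets annotated with several genes or with none, 50 were called by limma, 27 higher and 23 lower in Slou, and 12 of them carried several genes. The largest rise among them was in a probe set with no gene, which read 2.45, 1.09 and 0.09 in wild type set 1 and 8.01, 8.01 and 7.92 in Slou, a change of 6.77 on the log2 scale (SE 0.62, adjusted p = 0.0162), from wild-type values near background. The largest fall was in a probe set with several genes, which read 11.90, 11.86 and 11.78 in wild type and 9.67, 9.63 and 9.74 in Slou, a change of -2.17 (SE 0.10, adjusted p = 0.00511). Against wild type set 2 these probe sets changed by 4.81 and -1.79.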
